A study of Homo sapiens with 24 samples.

Results

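The DNA damage checkpoint kinases and mediators described here are 10 genes chosen by name: ATM, ATR, PRKDC, CHEK1, CHEK2, WEE1, ATRIP, TP53BP1, MDC1 and H2AX. Each probe that the probe-gene table pairs with 1 of these symbols was taken, which gave 20 of the 30113 array probes that have 1 gene symbol. Of these 20 probes, 16 were bright enough to test, and they cover 9 of the 10 genes among 10171 genes tested. The remaining 4 probes, 3 for ATR and 1 for CHEK2, were above background on 0 of 24 arrays. ATR therefore has no measured level here, and its 3 probes gave raw intensities between 72.9 and 155.2.

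RNA was measured in U2932 and OCI-Ly7, established lines of human diffuse large B cell lymphoma, an aggressive tumour of B cells. U2932 is usually classed as activated B cell-like and OCI-Ly7 as germinal centre B cell-like, and with 1 line for each class, class and line cannot be told apart. Cells received trabectedin, a drug whose target is the minor groove of the double helix, or the solvent DMSO, and were taken after 8 or 24 h. Line, treatment and time make 8 groups of 3 arrays. The labels give no dose, name no genetic change made to either line, and do not say whether the 3 arrays of a group came from separate cultures. The p-values below then measure only the spread between these arrays, which may be technical.

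ATM, DNA-PKcs (the product of PRKDC) and ATR are related kinases recruited to damaged DNA: ATM by the sensor complex at broken ends, DNA-PKcs by the Ku proteins, and ATR through its partner ATRIP at stretches of DNA coated by RPA. They phosphorylate histone H2AX next to the damage and activate the effector kinases CHK2 and CHK1 (CHEK2, CHEK1), which together with WEE1 restrain the cyclin-dependent kinases. MDC1 binds the phosphorylated histone, and the product of TP53BP1 gathers in the surrounding chromatin and steers repair towards end joining. The arrays read RNA and not these phosphorylations.

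Of the 10 genes, 8 were matched in a RefSeq promoter table of build GRCh38.p14, and PRKDC and WEE1 were not matched. The 250 bases before the annotated start are printed for H2AX, the gene whose RNA rose most, and for TP53BP1, CHEK2 and ATM, the genes with the lowest log2 changes in U2932 at 24 h. Each runs 5′ to 3′ on the strand of the gene. Capitals mark CCAAT (the CCAAT box, which reads ATTGG when it lies on the other strand) and TATAAA (the TATA box).
H2AX, chr11:119095466-119095715, minus strand: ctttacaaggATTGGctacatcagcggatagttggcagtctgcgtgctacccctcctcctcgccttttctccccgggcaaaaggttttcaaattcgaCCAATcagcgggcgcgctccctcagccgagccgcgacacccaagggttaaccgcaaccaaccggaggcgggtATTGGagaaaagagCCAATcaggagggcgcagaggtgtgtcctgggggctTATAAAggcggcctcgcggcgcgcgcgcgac
CHEK2, chr22:28741821-28742070, minus strand: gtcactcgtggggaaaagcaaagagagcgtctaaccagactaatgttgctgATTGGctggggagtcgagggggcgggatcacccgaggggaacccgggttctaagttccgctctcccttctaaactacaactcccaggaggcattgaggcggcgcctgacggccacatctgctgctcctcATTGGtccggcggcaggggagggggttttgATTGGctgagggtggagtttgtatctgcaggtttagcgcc
TP53BP1, chr15:43510641-43510890, minus strand: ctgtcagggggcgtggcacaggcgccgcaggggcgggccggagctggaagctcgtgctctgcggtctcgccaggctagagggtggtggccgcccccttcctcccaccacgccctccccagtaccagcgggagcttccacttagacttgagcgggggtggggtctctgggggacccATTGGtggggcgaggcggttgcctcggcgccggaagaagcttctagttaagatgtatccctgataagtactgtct
ATM, chr11:108222817-108223066, plus strand: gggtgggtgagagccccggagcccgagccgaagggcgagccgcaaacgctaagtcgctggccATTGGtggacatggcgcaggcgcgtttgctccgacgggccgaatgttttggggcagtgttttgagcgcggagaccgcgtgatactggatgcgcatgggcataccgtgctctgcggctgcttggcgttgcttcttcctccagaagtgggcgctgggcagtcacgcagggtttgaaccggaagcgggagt

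On both strands, the H2AX window held 4 CCAAT and 1 TATAAA, and the CHEK2 window held 3 CCAAT. MDC1 had 2 CCAAT, ATM, ATRIP, CHEK1 and TP53BP1 had 1 each, and ATR had 0. Over all 27305 promoters of the same length in the table, 33.0% held CCAAT, 3.09% held it at least 3 times, and 11.1% held TATAAA. The letters TTTGAA (a core of the cell cycle homology region) occurred once in ATM, MDC1 and H2AX and in 13.6% of all promoters. The E2F letters TTTGGCGC, TTTCGCGC or TTTCCCGC occurred in none of the 8 windows and in 2.38% of all promoters. These are matches of letters in a window, and no factor binding was measured.

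Between 11084 and 15424 of the 47231 probes were above background on each array, and arrays of the same group correlated across probes at r between 0.975 and 0.998. Mean intensity was 538.6 ± 17.8 (SD, n = 3) in U2932 with DMSO at 8 h and 364.8 ± 21.6 with trabectedin at 24 h. It was 365.8 ± 83.3 in OCI-Ly7 with DMSO at 24 h and 234.6 ± 45.0 with trabectedin at 24 h, where replicate 3 of either group was dimmer than its partners, at 270.1 and 182.8. By the array positions in the labels, all U2932 arrays lay on 1 chip with the treatments on opposite ends. The OCI-Ly7 arrays at 8 h also shared 1 chip, with DMSO at A, C and E and trabectedin at G, I and K. In these comparisons, position on the chip and treatment cannot be told apart. The OCI-Ly7 arrays with trabectedin at 24 h lay alone on a chip of their own, so for OCI-Ly7 at 24 h chip and treatment cannot be told apart, nor can line and chip. Of 8 B cell markers, 6 (MS4A1, CD79A, CD79B, CD22, CD74 and BLK) were above background on all arrays of every group, and the summed signal of the list lay between 20801 and 33007. None of 6 T cell markers (summed signal 260 to 295) and 4 NK cell markers (267 to 300) was above background on all arrays of a group. Of 5 fibroblast markers (247 to 308), DCN was, in 2 of the 8 groups. Of 8 myeloid markers, between 1 and 3 were above background, CD68 in every group, CD14 in all but both OCI-Ly7 DMSO groups, and MPO or FCGR3A in the U2932 trabectedin groups. Their summed signal lay between 759 and 810 with DMSO and between 2045 and 2110 with trabectedin in U2932 at 8 h, and between 744 and 773 and between 3149 and 3359 at 24 h. In OCI-Ly7 it lay between 1026 and 1033 with DMSO and between 1311 and 1397 with trabectedin at 8 h, and between 665 and 873 and between 2099 and 2819 at 24 h. Of 4 epithelial markers, EPCAM was above background in the U2932 groups (summed signal 1675 to 3222) and none was in the OCI-Ly7 groups (175 to 194). What part these markers have in the results below was not tested.

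Values below are background-corrected, quantile-normalised signals on the log2 scale, and a gene is said to have risen or fallen when limma gave an adjusted p (Benjamini-Hochberg over all 10171 genes) under 0.05. Errors of changes are SE from that fit, with n = 3 arrays per group. Quantile normalisation forces the same distribution on every array. With each array scaled to its median instead, the median change of all genes was -0.44 in U2932 at 8 h, -0.94 in U2932 at 24 h, 0.05 in OCI-Ly7 at 8 h and -0.42 in OCI-Ly7 at 24 h. The share of rising genes among those that passed then went from 48.5% to 23%, from 45.6% to 19.4%, from 48.3% to 51.1% and from 49.4% to 10.7%, respectively. In bulk RNA, fewer cells of a type and less RNA per cell cannot be told apart.

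In U2932 nearly the whole set fell and H2AX rose, while in OCI-Ly7 fewer genes passed the test. At 8 h in U2932, 7 of the 9 tested genes fell and 1 rose, where 40.2% of all tested genes fell and 37.9% rose. At 24 h, 7 fell and 2 rose, against 46.4% and 38.9% of all genes. In OCI-Ly7 at 8 h, 4 fell and 1 rose, against 30.7% and 28.7% of all genes, and at 24 h 2 fell and 1 rose, against 24.1% and 23.5%. In either direction, 78.0%, 85.2%, 59.4% and 47.6% of all genes passed in these 4 comparisons, so many genes moved with trabectedin besides these. Treated and control arrays did not overlap for 6 genes below and 1 above in U2932 at 8 h, against 40.6% and 38.5% of all genes, and for 7 and 2 at 24 h, against 46.8% and 38.9%. In OCI-Ly7 the counts were 6 and 1 at 8 h, against 33.7% and 32.2%, and 4 and 1 at 24 h, against 28.6% and 26.8%. The median log2 change of the 9 genes was -0.42, -1.003, -0.39 and -0.29 in these comparisons, beside -0.0005, -0.10, 0.00 and 0.01 over all genes. With median scaling, 1 rose and 8 fell in U2932 at both times, 1 rose and 3 fell in OCI-Ly7 at 8 h, and 0 rose and 7 fell in OCI-Ly7 at 24 h, with medians of -1.05, -2.11, -0.32 and -0.94.

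**Figure D1:**
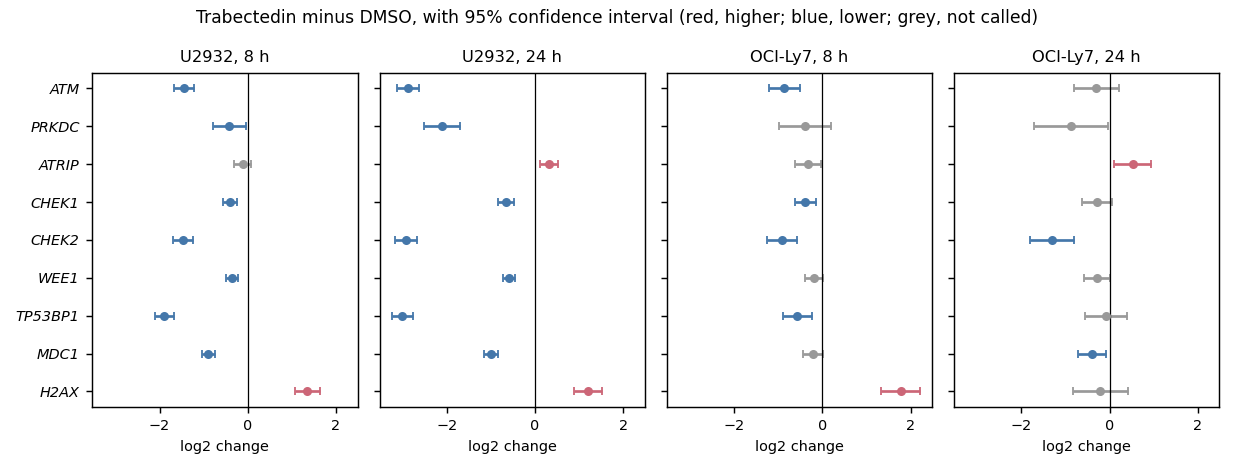
Log2 change, trabectedin minus DMSO, of the 9 tested genes in each line and time; points are limma estimates from 3 arrays per group and bars are 95% confidence intervals. In U2932 at 24 h TP53BP1, CHEK2 and ATM lie near -3, while H2AX lies right of 0 in every panel except OCI-Ly7 at 24 h.

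**Figure D2:**
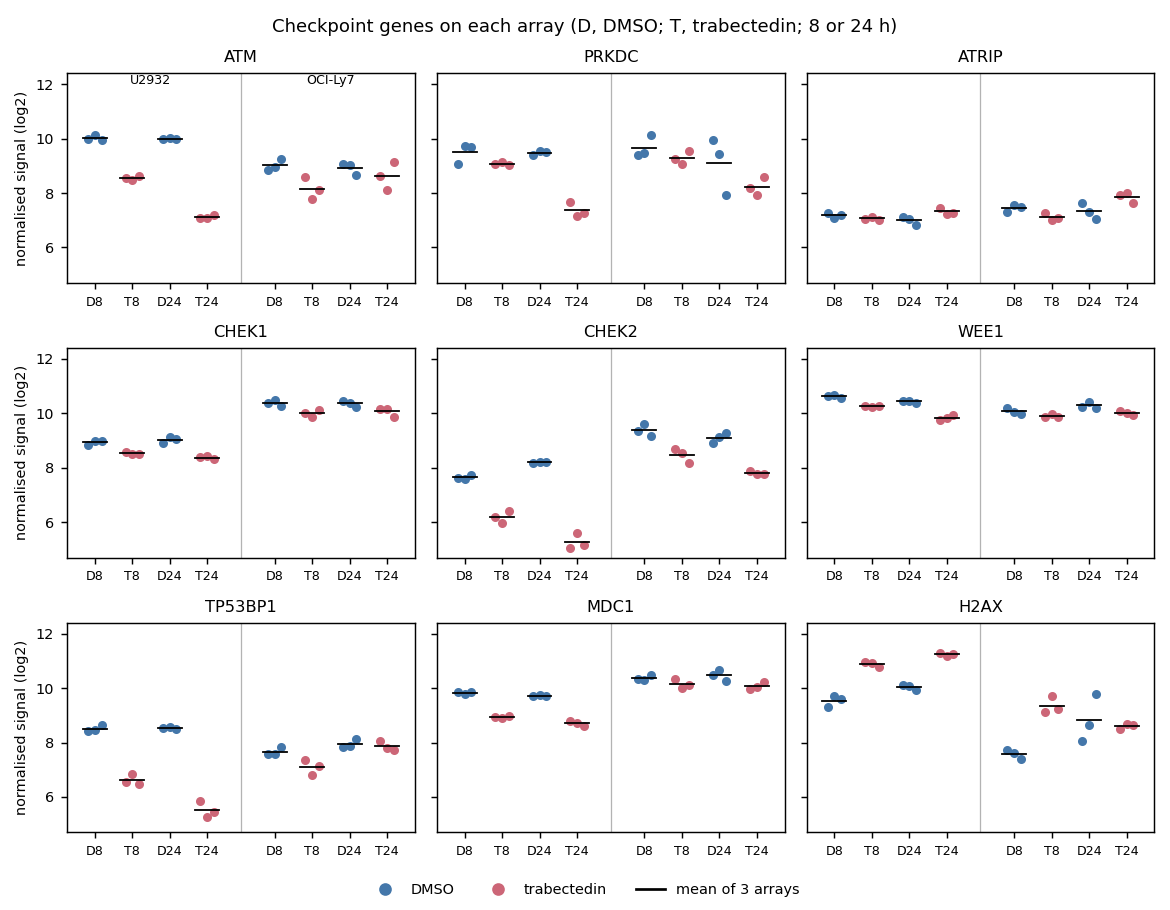
Normalised log2 signal of the main probe of each gene on each of the 24 arrays, by line, treatment (D, DMSO; T, trabectedin) and hours; points are arrays and bars are means of 3 arrays. ATM, CHEK2 and TP53BP1 step down from 8 to 24 h of trabectedin in U2932, and PRKDC and H2AX spread widely in OCI-Ly7 with DMSO at 24 h.

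Among the apical kinases, ATM RNA fell in U2932 at both times and further at the later one. On its main probe the 3 U2932 arrays read 9.97, 10.12 and 9.93 with DMSO at 8 h and 8.56, 8.50 and 8.63 with trabectedin. At 24 h they read 9.997, 10.01 and 9.97 with DMSO and 7.10, 7.08 and 7.18 with trabectedin. Treated and control arrays did not overlap at either time. The log2 change was -1.44 ± 0.11 (SE) at 8 h, adjusted p = 2.13e-11, and the log2 change was -2.87 ± 0.12 at 24 h, adjusted p = 8.77e-17. At 24 h 4.77% of all tested genes had a lower log2 change than ATM.

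ATM in OCI-Ly7 moved less and its arrays were more scattered. At 8 h they read 8.85, 8.94 and 9.26 with DMSO and 8.58, 7.77 and 8.10 with trabectedin, without overlap, a log2 change of -0.86 ± 0.17 (limma, adjusted p = 0.000128). At 24 h they read 9.05, 9.05 and 8.68 with DMSO and 8.63, 8.10 and 9.15 with trabectedin, the last being the dim replicate 3. The groups overlapped, and the log2 change of -0.30 had a 95% confidence interval from -0.80 to 0.20 (adjusted p = 0.337). With 1 array left out the change lay between -0.56 (without trabectedin replicate 3) and -0.03 (without trabectedin replicate 2) and did not pass. Without the dim replicate 3 of both OCI-Ly7 24 h groups it was -0.69, adjusted p = 0.0166. A second ATM probe, above background on all 24 arrays, fell in all 4 comparisons, with log2 changes of -1.20 and -1.91 in U2932 and -0.45 and -0.65 in OCI-Ly7, where the arrays overlapped (adjusted p 0.0332 and 0.0359). Over all 17570 kept probes, 35.6% fell and 40.5% rose in U2932 at 8 h, 42.0% and 41.6% at 24 h, 27.2% and 29.1% in OCI-Ly7 at 8 h, and 23.7% and 21.1% at 24 h. Another ATM probe was above background on 5 of 24 arrays and moved the other way in U2932 at 24 h, by 0.58 ± 0.094, partly on background values.

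PRKDC, the catalytic subunit of DNA-PK, fell steeply in U2932 between 8 and 24 h. Its main probe read 9.05, 9.73 and 9.69 with DMSO at 8 h and 9.05, 9.15 and 9.02 with trabectedin, with overlap. At 24 h it read 9.39, 9.54 and 9.49 with DMSO and 7.68, 7.15 and 7.27 with trabectedin, without overlap. The 24 h change was -2.11 ± 0.20 (adjusted p = 6.43e-10). At 8 h it was -0.42 ± 0.19 (adjusted p = 0.0444), and leaving out any 1 of the 3 trabectedin arrays, or replicate 2 or 3 of DMSO, took the adjusted p to between 0.0537 and 0.211. Without DMSO replicate 1 the 8 h change was -0.64. The other 3 PRKDC probes also fell at 8 h, with log2 changes of -0.49, -0.39 and -0.52. At 24 h no treated array held them above background, so that their signal was at least 2.28-fold, 2.47-fold and 1.61-fold lower than with DMSO.

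In OCI-Ly7 the 4 PRKDC probes separated. At 8 h the main probe read 9.41, 9.49 and 10.12 with DMSO and 9.24, 9.06 and 9.54 with trabectedin, and at 24 h it read 9.94, 9.44 and 7.94 with DMSO and 8.19, 7.92 and 8.60 with trabectedin. The low DMSO value, on the dim replicate 3, made the groups overlap, and the 24 h change of -0.87 did not pass the test (95% confidence interval -1.70 to -0.04, adjusted p = 0.0783). Without that array it was -1.45 (adjusted p = 0.000708), and without trabectedin replicate 3 it was -1.05 (adjusted p = 0.0452). The other 3 probes read between 6.84 and 7.65 with DMSO and were above background on none of the treated arrays at 24 h, at least 3.52-fold, 4.07-fold and 2.98-fold lower. At 8 h the main probe overlapped between groups and its change of -0.39 did not pass (95% confidence interval -0.97 to 0.19, adjusted p = 0.246), while the mean of the 4 probes changed by -0.49 (adjusted p = 0.00126).

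**Figure D3:**
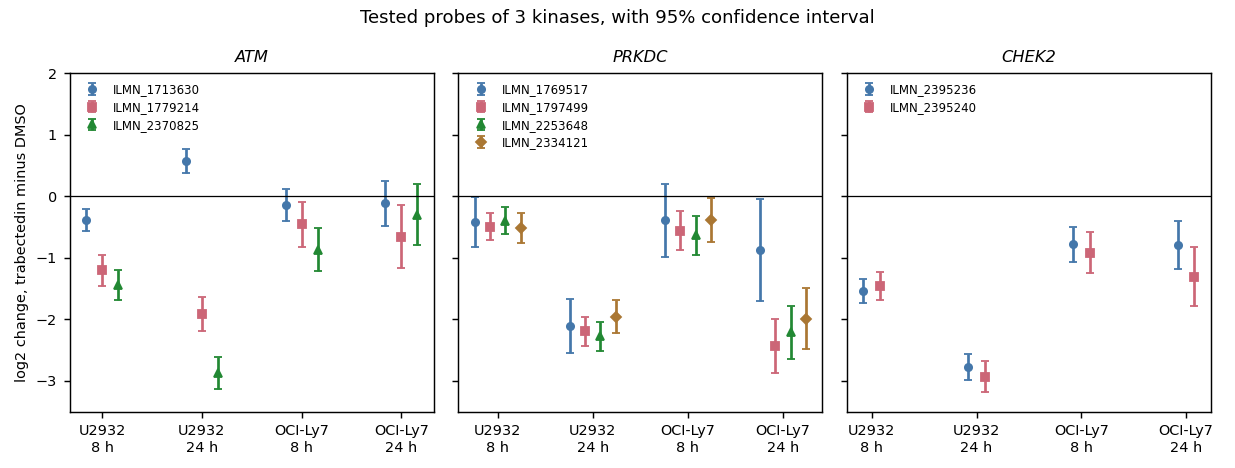
Log2 change, trabectedin minus DMSO, of each tested probe of ATM, PRKDC and CHEK2 in each line and time; points are limma estimates from 3 arrays per group and bars are 95% confidence intervals. The 4 PRKDC probes lie together in U2932, 1 of them lies apart from the other 3 in OCI-Ly7 at 24 h, and 1 dim ATM probe lies above 0 in U2932 at 24 h.

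ATRIP, the partner that brings ATR to RPA-coated DNA, changed little. In U2932 at 24 h its arrays read 7.14, 7.06 and 6.83 with DMSO and 7.47, 7.241 and 7.26 with trabectedin, without overlap. In OCI-Ly7 at 24 h they read 7.62, 7.32 and 7.06 with DMSO and 7.94, 7.99 and 7.64 with trabectedin. Treated arrays lay above their controls in both lines, narrowly in OCI-Ly7. The rises were 0.31 ± 0.10 in U2932 (adjusted p = 0.00695) and 0.52 ± 0.20 in OCI-Ly7 (adjusted p = 0.0391). At 8 h the changes were -0.11 and -0.32, with adjusted p of 0.276 and 0.0574, the latter 0.0478 without DMSO replicate 1 and 0.0403 without trabectedin replicate 1 (both changes -0.40). With median scaling the 24 h values turned to -1.15 in U2932 and -0.22 in OCI-Ly7, which is -0.22 and 0.20 relative to the median of all genes. The U2932 rise did not pass without trabectedin replicate 1 (0.24, adjusted p = 0.0537). The OCI-Ly7 rise did not pass without DMSO replicate 2 or 3 or trabectedin replicate 1 or 2 (0.39 to 0.51, adjusted p 0.114 to 0.157). These values are from the main probe. A second ATRIP probe, above background on all 24 arrays, changed by 0.15 in U2932 at 24 h, with overlap (limma, adjusted p = 0.215). In OCI-Ly7 at 24 h the second probe rose by 0.70, without overlap (adjusted p = 0.00796). ATRIP overlaps the annotated readthrough ATRIP-TREX1, and whether its probes also pick up that transcript was not examined.

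Of the effector kinases, CHEK2 fell in every comparison and CHEK1 and WEE1 moved by less. CHK2 is activated by ATM. In U2932 the main CHEK2 probe read 7.63, 7.57 and 7.75 with DMSO at 8 h and 6.19, 5.99 and 6.40 with trabectedin, and at 24 h it read 8.16, 8.22 and 8.23 with DMSO and 5.06, 5.61 and 5.16 with trabectedin. The treated arrays at 24 h read lower than those of every other group, and all 3 were in the background. The log2 change was -1.46 ± 0.11 at 8 h (limma, adjusted p = 1.20e-11), and at 24 h the signal was at least 4.32-fold lower (adjusted p = 3.97e-17).

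In OCI-Ly7 CHEK2 read 9.36, 9.61 and 9.15 with DMSO at 8 h and 8.70, 8.52 and 8.16 with trabectedin. At 24 h it read 8.91, 9.13 and 9.27 with DMSO and 7.88, 7.76 and 7.76 with trabectedin. The groups did not overlap at either time. The log2 changes were -0.91 ± 0.17 (adjusted p = 5.31e-05) and -1.30 ± 0.24 (adjusted p = 8.50e-05), and at 24 h 6.47% of tested genes had a lower log2 change. The second tested CHEK2 probe fell as well, with log2 changes of -1.54 in U2932 and -0.78 in OCI-Ly7 at 8 h and -0.79 in OCI-Ly7 at 24 h. In U2932 at 8 h this probe was above background on 2 of 3 treated arrays, so that value rests partly on background. In U2932 at 24 h it was at least 3.10-fold lower.

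CHEK1 encodes CHK1, the kinase that ATR activates. In U2932 it read 8.83, 8.98 and 8.98 with DMSO at 8 h against 8.58, 8.50 and 8.50 with trabectedin, and 8.92, 9.13 and 9.05 against 8.39, 8.41 and 8.31 at 24 h. In OCI-Ly7 it read 10.39, 10.50 and 10.26 with DMSO at 8 h against 10.01, 9.86 and 10.12 with trabectedin, and 10.46, 10.40 and 10.25 against 10.18, 10.18 and 9.87 at 24 h. Treated arrays were below their controls in each of the 4 comparisons. CHEK1 fell, with log2 changes of -0.40 ± 0.076, -0.66 ± 0.082 and -0.39 ± 0.12, in U2932 at 8 h, U2932 at 24 h and OCI-Ly7 at 8 h (adjusted p 3.93e-05, 7.33e-08 and 0.00561). In OCI-Ly7 at 24 h the change was -0.29 (95% confidence interval -0.63 to 0.05, adjusted p = 0.149). With median scaling the OCI-Ly7 changes were -0.23 at 8 h (adjusted p = 0.354) and -0.90 at 24 h (adjusted p = 0.0293).

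WEE1 encodes the kinase that places the inhibitory phosphate on CDK1. In U2932 it read 10.64, 10.69 and 10.55 with DMSO at 8 h against 10.28, 10.24 and 10.28 with trabectedin, and 10.47, 10.45 and 10.39 against 9.74, 9.84 and 9.95 at 24 h. In OCI-Ly7 its arrays lay between 9.99 and 10.43 with DMSO and between 9.87 and 10.08 with trabectedin. In each comparison the treated arrays were below the controls, by the widest margin in U2932 at 24 h. WEE1 fell, with log2 changes of -0.36 ± 0.065 and -0.59 ± 0.070, in U2932 (adjusted p 1.87e-05 and 3.15e-08). In OCI-Ly7 the changes were -0.18 and -0.28, with adjusted p of 0.126 and 0.105. With median scaling the OCI-Ly7 24 h change was -0.90, adjusted p = 0.0233.

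The mediators TP53BP1 and MDC1 fell in U2932 at both times. In U2932 TP53BP1 read 8.41, 8.48 and 8.63 with DMSO at 8 h and 6.54, 6.83 and 6.49 with trabectedin. At 24 h it read 8.53, 8.56 and 8.51 with DMSO and 5.84, 5.25 and 5.47 with trabectedin, where 2 of the 3 treated arrays were in the background. Control and treated arrays were far apart at both times. The log2 changes were -1.89 ± 0.11 (adjusted p = 5.07e-14) and -3.01 ± 0.12 (adjusted p = 1.34e-17), the latter resting partly on background values. Of all tested genes, 5.83% and 3.94% had a lower change.

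In OCI-Ly7 TP53BP1 read 7.56, 7.59 and 7.84 with DMSO at 8 h and 7.36, 6.81 and 7.13 with trabectedin, without overlap, a log2 change of -0.56 ± 0.16 (adjusted p = 0.0046). At 24 h the arrays read 7.83, 7.87 and 8.13 with DMSO and 8.06, 7.81 and 7.71 with trabectedin. These groups overlapped, and the change was -0.08 (95% confidence interval -0.56 to 0.39, adjusted p = 0.806), or 0.0089 without DMSO replicate 3.

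MDC1, the scaffold that binds phosphorylated H2AX, fell by a like amount at both times in U2932. It read 9.85, 9.76 and 9.87 with DMSO at 8 h against 8.95, 8.88 and 8.96 with trabectedin, and 9.72, 9.74 and 9.69 against 8.80, 8.72 and 8.62 at 24 h. The log2 changes, with no overlap of arrays, were -0.90 ± 0.071 (adjusted p = 2.58e-11) and -1.003 ± 0.077 (adjusted p = 9.29e-12). In OCI-Ly7 it read 10.32, 10.28 and 10.47 against 10.33, 10.002 and 10.10 at 8 h, with overlap, and 10.48, 10.65 and 10.26 against 9.96, 10.03 and 10.22 at 24 h, narrowly without. The 8 h change of -0.21 had an adjusted p of 0.0996, or was -0.30 without trabectedin replicate 1 (adjusted p = 0.0311). The 24 h change was -0.39 ± 0.15 (adjusted p = 0.0387), and it did not pass without DMSO replicate 1 or 2 or trabectedin replicate 1 or 2 (-0.30 to -0.38, adjusted p 0.0682 to 0.273).

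H2AX, the histone variant whose phosphorylated form marks chromatin around DNA damage, rose in U2932 at both times and in OCI-Ly7 at 8 h. In U2932 it read 9.30, 9.71 and 9.59 with DMSO at 8 h and 10.97, 10.91 and 10.77 with trabectedin, and at 24 h it read 10.11, 10.09 and 9.91 with DMSO and 11.30, 11.18 and 11.26 with trabectedin. In OCI-Ly7 at 8 h it read 7.73, 7.61 and 7.41 with DMSO and 9.13, 9.71 and 9.22 with trabectedin. In these 3 comparisons every treated array was above every control. The rises were 1.35 ± 0.14 (adjusted p = 4.24e-09), 1.21 ± 0.15 (adjusted p = 8.22e-08) and 1.77 ± 0.21 (adjusted p = 1.71e-07). In OCI-Ly7 at 8 h, 98.9% of all tested genes had a lower change than H2AX. With median scaling the rises were 1.02, 0.67 and 1.73.

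In OCI-Ly7 at 24 h the H2AX controls scattered, at 8.05, 8.64 and 9.78, and the treated arrays read 8.51, 8.68 and 8.64, inside the range of the controls. The change was -0.21 ± 0.30 (95% confidence interval -0.84 to 0.42, adjusted p = 0.610). The highest control was the dim replicate 3. Without it the change was 0.27 (adjusted p = 0.379), and with median scaling it was -0.94 (adjusted p = 0.018). RNA was amplified with a kit that primes on poly(A) tails, and whether the probe reads the polyadenylated H2AX transcript, the form ending in a histone stem-loop, or both was not measured.

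The trabectedin effects differed between the lines for 4 of the 9 genes at 8 h and 6 at 24 h. Differences are OCI-Ly7 minus U2932 on the log2 scale, tested as interaction contrasts in limma, and they share the arrays of the effects above. At 8 h 4 were positive and 0 negative, where 26.9% and 19.1% of all genes were (46.0% in all). At 24 h 5 were positive and 1 negative, against 35.7% and 23.0% (58.7% in all). With median scaling 8 were positive and 0 negative at 8 h and 7 and 1 at 24 h, while the median over all genes moved to 0.61 and 0.54 and the positive share of the genes that passed went from 58.5% to 91.8% and from 60.8% to 83%. TP53BP1 differed by 1.33 ± 0.19 at 8 h (adjusted p = 8.28e-06) and 2.93 ± 0.26 at 24 h (adjusted p = 2.73e-09), its fall being the larger in U2932. The 24 h value rests partly on background signals in U2932. ATM differed by 2.57 ± 0.27 at 24 h (adjusted p = 3.68e-08) on the main probe and by 1.26 ± 0.28 on the second (adjusted p = 0.000629).

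CHEK2 differed by 1.62 ± 0.27 at 24 h (adjusted p = 1.65e-05), a value that rests on background signals in U2932. MDC1 differed by 0.69 ± 0.13 at 8 h and 0.61 ± 0.17 at 24 h (adjusted p 0.000137 and 0.0038). For H2AX the 24 h difference was -1.42 ± 0.34 (adjusted p = 0.00103), and -0.94 without the dim OCI-Ly7 DMSO replicate 3. For PRKDC it was 1.23 ± 0.45 on the main probe (adjusted p = 0.0218). The other 3 probes were in the background on the treated arrays of both lines, so they do not measure this difference. On the main probe it was 0.65 without OCI-Ly7 DMSO replicate 3 (adjusted p = 0.127) and 1.05 without OCI-Ly7 trabectedin replicate 3 (adjusted p = 0.0609). The 8 h differences of ATM, 0.58, and CHEK2, 0.54, had adjusted p of 0.0236 and 0.0298. ATM did not pass without U2932 DMSO replicate 2, OCI-Ly7 DMSO replicate 1 or 2, or OCI-Ly7 trabectedin replicate 1 or 3 (0.36 to 0.60, adjusted p 0.0515 to 0.147). CHEK2 did not pass without U2932 trabectedin replicate 2, U2932 DMSO replicate 3, OCI-Ly7 DMSO replicate 1 or 3, or OCI-Ly7 trabectedin replicate 1 or 2 (0.42 to 0.54, adjusted p 0.0503 to 0.12), and it was 0.10 without background correction (adjusted p = 0.565). These 8 h values are from the main probes. On the second probes the 8 h differences were 0.75 for ATM and 0.76 for CHEK2 (limma, adjusted p 0.00785 and 0.000703). The CHEK2 value rests partly on background signals in U2932. For CHEK1, WEE1 and ATRIP the 24 h differences were 0.36, 0.31 and 0.21, with 95% confidence intervals of -0.02 to 0.74, -0.01 to 0.63 and -0.27 to 0.68.

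On the main probes, the effect moved between 8 and 24 h for 6 of the 9 genes in U2932 and for 2 in OCI-Ly7. In U2932 5 moved down and 1 up, against 32.7% and 23.9% of all genes (56.6% in all), and in OCI-Ly7 1 moved down and 1 up, against 14.8% and 17.5% (32.3% in all). With median scaling 7 moved down in U2932 and 3 in OCI-Ly7, none moved up, and the share of upward shifts among all genes that passed went from 42.2% to 14.1% and from 54.1% to 6.04%. In U2932 the shifts of ATM, PRKDC, CHEK2 and TP53BP1 were -1.43 ± 0.17, -1.69 ± 0.27, -1.47 ± 0.16 and -1.12 ± 0.16 (limma, adjusted p 1.15e-07, 1.29e-05, 5.22e-08 and 1.90e-06). The second ATM probe shifted by less, -0.71 (limma, adjusted p = 0.00202). The dim ATM probe shifted by 0.96, partly on background values. At 24 h the treated arrays were in the background for CHEK2 on all 3 and for TP53BP1 on 2 of 3, so the sizes of these shifts are not fully measured. In OCI-Ly7 the PRKDC shift was -0.48 on the main probe (limma, adjusted p = 0.49). On the other 3 PRKDC probes it was -1.87, -1.58 and -1.60 (limma, adjusted p 1.45e-05, 7.95e-05 and 0.000252). Their treated arrays at 24 h were in the background, so these sizes are not fully measured. For MDC1 and H2AX the shifts in U2932 were -0.10 and -0.14, with 95% confidence intervals of -0.32 to 0.11 and -0.57 to 0.29. WEE1 shifted by -0.23 (adjusted p = 0.0461). That call was lost without U2932 trabectedin replicates 1, 2 or 3 at 8 h or 1 or 2 at 24 h, DMSO replicate 3 at 8 h or DMSO replicate 1 or 2 at 24 h (-0.18 to -0.24, adjusted p 0.0529 to 0.154). ATRIP shifted by 0.43 ± 0.14 in U2932 and 0.84 ± 0.25 in OCI-Ly7 (adjusted p 0.0115 and 0.012), the latter lost without DMSO replicate 2 at 24 h (0.84, adjusted p = 0.0572). With median scaling the U2932 shift of ATRIP was -0.20. On the second ATRIP probe the shifts were 0.23 in U2932 (limma, adjusted p = 0.216) and 1.02 in OCI-Ly7 (adjusted p = 0.00385). H2AX shifted by -1.98 ± 0.37 in OCI-Ly7 (adjusted p = 0.00029). That value uses the scattered DMSO arrays at 24 h, and with 1 array left out it lay between -2.37 and -1.51.

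The DMSO arrays themselves differed over time for a few of the genes. In U2932 2 were higher and 1 lower at 24 h, against 11.3% and 12.5% of all genes, and in OCI-Ly7 1 was higher and 0 lower, against 6.87% and 8.35%. With median scaling the share of rising genes among those that passed in OCI-Ly7 went from 45.2% to 66.1%. CHEK2 rose by 0.55 ± 0.097 in U2932 controls (adjusted p = 0.000244), a call lost with equal array weights (adjusted p = 0.0571). H2AX rose by 0.51 ± 0.12 in U2932 controls (adjusted p = 0.00454), lost with equal weights (adjusted p = 0.365). In OCI-Ly7 controls H2AX rose by 1.24 ± 0.26 (adjusted p = 0.00247). Without the dim 24 h replicate 3 that value was 0.76, and the call was lost without 24 h replicate 2 (1.33, adjusted p = 0.0579). WEE1 changed by -0.19 ± 0.057 in U2932 controls (adjusted p = 0.0165), a call lost with equal weights (adjusted p = 0.33) and without DMSO replicate 2 at 8 h (adjusted p = 0.12) or replicate 3 at 24 h (adjusted p = 0.0566). These are the same DMSO arrays that serve as controls for the trabectedin effects.

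In DMSO the lines differed at 8 of the 9 genes, 4 higher and 4 lower in OCI-Ly7, where 32.9% and 35.7% of all genes were (68.6% in all). With median scaling 2 were higher and 6 lower, and the share of higher genes among all that passed went from 48% to 11.9%. CHEK1 and CHEK2 were higher in OCI-Ly7 by 1.40 ± 0.078 and 1.31 ± 0.11 (limma, adjusted p 5.37e-14 and 1.95e-10). H2AX, ATM, TP53BP1 and WEE1 were lower, with differences of -1.58 ± 0.14, -1.03 ± 0.11, -0.71 ± 0.11 and -0.35 ± 0.066 (adjusted p 5.36e-10, 2.07e-08, 3.01e-06 and 5.63e-05). MDC1 and ATRIP were higher by 0.63 and 0.30, but with median scaling the values were -0.22 and -0.50, and with normalisation within each line -0.12 and -0.22. ATRIP also did not pass without OCI-Ly7 24 h DMSO replicate 1 (0.22, adjusted p = 0.0604) or 2 (0.30, adjusted p = 0.0545). On the second ATRIP probe the difference was 0.17 and did not pass (limma, adjusted p = 0.138). For PRKDC the difference was -0.09 (95% confidence interval -0.48 to 0.30). Lines and chips cannot be told apart in these values.

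By the root mean square difference of their 4 trabectedin log2 changes, CHEK1 and WEE1 were the most alike pair among the 9 genes, at 0.113, followed by ATM and TP53BP1 at 0.297. H2AX stood apart from TP53BP1, CHEK2 and ATM, at 2.91, 2.89 and 2.80. The values for CHEK2 and TP53BP1 use U2932 24 h signals in or partly in the background, so their order and likeness to other genes are not fully measured. Over all tested genes, the pattern nearest to ATM was that of VEZT (0.051), to PRKDC that of TBCA (0.077), to CHEK1 that of HAUS7 (0.042), to CHEK2 that of PPHLN1 (0.106) and to WEE1 that of SUMO2 (0.037). TP53BP1 was nearest to MSRB1 (0.095), MDC1 to AHCYL2 (0.040) and ATRIP to TFRC (0.074). H2AX had the least close neighbour, FAM86B1 at 0.164, which changed by 1.32, 1.47, 1.60 and -0.29. With 4 changes a gene, this measure is only a description.

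Genes lying next to the 9 on the chromosome were read for comparison. NPAT, a regulator of histone gene transcription that lies beside ATM, changed by -0.70 and -1.38 in U2932 and by -0.36 and 0.10 in OCI-Ly7, the former pair with adjusted p of 3.63e-05 and 2.41e-09 and the latter with 0.122 and 0.810. DPAGT1, which overlaps H2AX and encodes an enzyme of glycan synthesis, moved opposite to it, by -0.51, -1.14 and -0.96 in the 3 comparisons in which H2AX rose (adjusted p 7.30e-06, 2.71e-11 and 9.45e-07). HSCB, next to CHEK2, rose by 0.62 and 0.46 in U2932 and by 1.33 in OCI-Ly7 at 24 h (adjusted p 4.44e-09, 1.58e-06 and 5.99e-08). ZNF143, a transcription factor gene next to WEE1, changed by -0.87, -1.19 and -0.99 in U2932 at 8 h, U2932 at 24 h and OCI-Ly7 at 8 h (adjusted p 8.29e-08, 1.11e-09 and 1.50e-05). STT3A, next to CHEK1, changed by -0.41, -0.55 and -0.66 in U2932 at both times and OCI-Ly7 at 24 h and by 0.39 in OCI-Ly7 at 8 h, each passing the test. TMA7, next to ATRIP, changed by 0.26, 0.50 and 0.83 in U2932 at 8 h, U2932 at 24 h and OCI-Ly7 at 8 h (adjusted p 0.00223, 2.78e-06 and 6.94e-07) and by 0.25 in OCI-Ly7 at 24 h (adjusted p = 0.204). ATM overlaps C11orf65 and MDC1 overlaps MDC1-AS1 in the annotation, and these partners were not tested here.

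The wider pathway was read from lists of 78 further genes, of which 69 were tested. In U2932 21 rose and 29 fell at 8 h and 22 rose and 35 fell at 24 h. In OCI-Ly7 17 rose and 28 fell at 8 h and 16 rose and 17 fell at 24 h. Over all tested genes the rising and falling shares were 37.9% and 40.2%, 38.9% and 46.4%, 28.7% and 30.7%, and 23.5% and 24.1% in these comparisons, and the count of each list below stands against the same shares. The median change of the 69 genes was 0.01, -0.28, -0.19 and 0.10, beside -0.0005, -0.10, 0.00 and 0.01 over all genes.

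**Figure D4:**
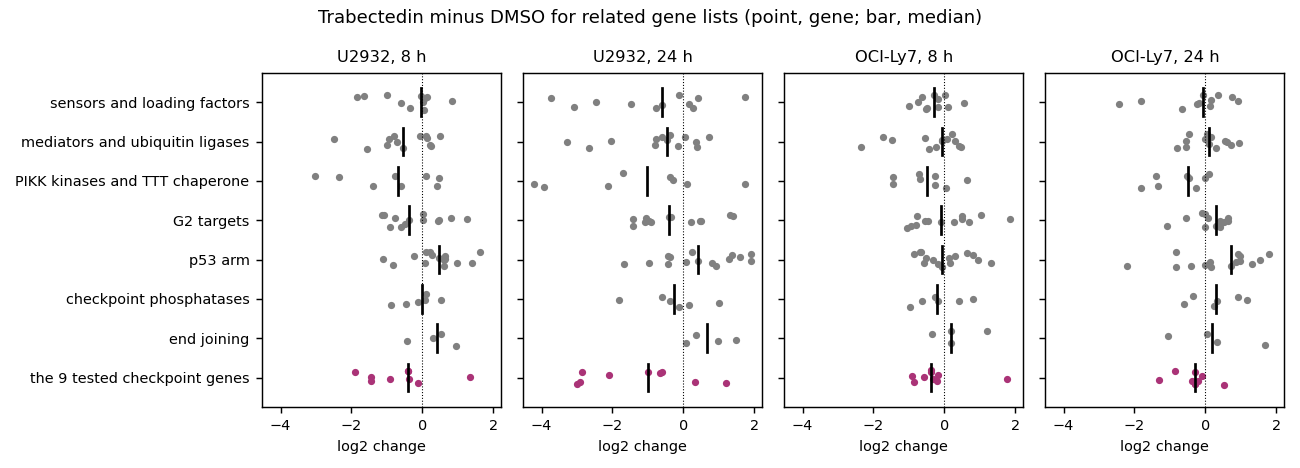
Log2 change, trabectedin minus DMSO, of the tested genes of 7 pathway lists and of the 9 checkpoint genes in each line and time; points are genes and bars are medians. In U2932 at 24 h the bar of the 9 genes lies at -1.003 and that of the p53 arm at 0.42. The list of related kinases and their chaperone has its bar at -1.03, with genes far to either side, such as SMG1 at -2.12 and TELO2 at 1.74.

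Of 11 tested sensors and loading factors, which bring the kinases to DNA, 5 fell and 1 rose in U2932 at 8 h, and 6 fell and 2 rose at 24 h. In OCI-Ly7 5 fell and 1 rose at 8 h, and 3 fell and 2 rose at 24 h. Their medians were -0.04, -0.61, -0.29 and -0.07. NBN, the subunit through which the MRE11 complex recruits ATM, changed by -1.84 ± 0.094 in U2932 at 8 h (limma, adjusted p = 7.24e-15) and was in the background there at 24 h, at least 9.81-fold lower. It changed by -0.99 and -1.81 in OCI-Ly7 (adjusted p 2.47e-06 and 1.40e-07). XRCC5, the Ku subunit that recruits DNA-PKcs, changed by -1.65 and -3.09 in U2932 and by -2.42 in OCI-Ly7 at 24 h (adjusted p 2.61e-15, 4.55e-20 and 1.56e-10). RAD9A, part of the clamp that helps activate ATR, rose in all 4 comparisons, by 0.82, 1.73, 0.55 and 0.91 (adjusted p at most 0.00156).

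Of 13 mediators and ubiquitin ligases, all tested, 7 fell and 1 rose in U2932 at 8 h and 8 fell and 3 rose at 24 h. In OCI-Ly7 5 fell and 2 rose at 8 h and 3 fell and 2 rose at 24 h. Their medians were -0.54, -0.46, -0.08 and 0.11. UIMC1, which reads ubiquitin chains at breaks, changed by -2.50 and -3.29 in U2932 and by -2.35 in OCI-Ly7 at 8 h (adjusted p 9.86e-15, 1.01e-16 and 7.04e-10). BRCA1 fell by 1.55 in U2932 at 8 h and was at least 4.79-fold lower at 24 h with all treated arrays in the background. In OCI-Ly7 it changed by -1.47 at 8 h and fell by 0.79 at 24 h, the latter with an adjusted p of 0.005. TOPBP1, an activator of ATR, fell by 1.73 in OCI-Ly7 at 8 h (adjusted p = 3.94e-10), beside -0.54 and -0.59 in U2932 and 0.29 in OCI-Ly7 at 24 h. BABAM1, a subunit of the BRCA1-A complex, rose by between 0.38 and 0.56 in the 4 comparisons. CLSPN, the adaptor for CHK1 activation, rose by 0.71 in U2932 at 24 h (adjusted p = 0.00019). RIF1, which acts with the TP53BP1 product, rose by 0.95 in OCI-Ly7 at 24 h on its main probe while its other probe moved the other way, and its log2 changes in the other comparisons were -0.94, -0.81 and -0.54.

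Of 8 relatives of the apical kinases and of the chaperone that matures them, 5 fell and 2 rose in U2932 at 8 h, 6 fell and 1 rose at 24 h. In OCI-Ly7 4 fell and 1 rose at 8 h, and 4 fell and 0 rose at 24 h. Their medians were -0.69, -1.03, -0.48 and -0.49. TRRAP, a kinase-like scaffold of acetyltransferase complexes, fell by 3.01 ± 0.10 in U2932 at 8 h (adjusted p = 2.69e-18) and was at least 14-fold lower at 24 h with all treated arrays in the background. It changed by -1.44 and -1.39 in OCI-Ly7, passing the test at both times. MTOR, the growth-control kinase of the family, fell by 2.36 in U2932 at 8 h, was at least 6.32-fold lower at 24 h with treated arrays in the background, and changed by -1.44 and -1.81 in OCI-Ly7 (adjusted p 4.22e-09 and 6.55e-08). TELO2, a subunit of the chaperone, rose by 0.46 and 1.74 in U2932 (adjusted p 0.00951 and 8.47e-10), beside -0.26 and 0.10 in OCI-Ly7.

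Of 13 tested targets at the entry to mitosis, 7 fell and 4 rose in U2932 at 8 h and 8 fell and 4 rose at 24 h. In OCI-Ly7 6 fell and 5 rose at 8 h and 2 fell and 3 rose at 24 h. Their medians were -0.37, -0.41, -0.09 and 0.28. PKMYT1, which inhibits CDK1 as WEE1 does, rose by 1.26 and 1.31 in U2932 and 1.84 in OCI-Ly7 at 8 h and fell by 1.07 in OCI-Ly7 at 24 h (adjusted p 5.28e-08, 7.77e-08, 3.36e-07 and 0.00952). CDC25A, a phosphatase that activates cyclin-dependent kinases and is a target of CHK1, rose by 0.81 and 1.40 in U2932 (adjusted p 9.40e-09 and 1.10e-12). CDC25C, the phosphatase that frees CDK1, changed by -1.43 in U2932 at 24 h and by -1.05 in OCI-Ly7 at 8 h (adjusted p 3.11e-11 and 6.92e-06). CCNB2, a mitotic cyclin, changed by -1.13 and -1.42 in U2932 (adjusted p 2.44e-11 and 8.00e-13), beside -0.80 and 0.28 in OCI-Ly7. AURKA, a mitotic kinase, changed by -1.09 in U2932 at 8 h (limma, adjusted p = 2.85e-12). Its other changes were -1.09 in U2932 at 24 h and -0.79 and -0.02 in OCI-Ly7.

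Of 15 tested genes of the p53 arm, 9 rose and 2 fell in U2932 at 8 h and 8 rose and 5 fell at 24 h. In OCI-Ly7 5 rose and 5 fell at 8 h and 7 rose and 3 fell at 24 h. Their medians were 0.47, 0.42, -0.07 and 0.73. GADD45B, a stress-induced gene, rose in all 4 comparisons, by 1.63, 1.90, 0.96 and 1.55 (adjusted p at most 9.64e-06). CDKN1A, which encodes the inhibitor p21, rose by 1.41 in U2932 at 8 h (adjusted p = 6.85e-14), beside log2 changes of 1.60 in U2932 at 24 h and of -0.56 and 1.32 in OCI-Ly7 at 8 and 24 h. PMAIP1, a pro-apoptotic gene, rose by 1.31 and 1.80 in OCI-Ly7 (adjusted p 9.34e-10 and 4.12e-09), beside log2 changes of 0.99 and 1.275 in U2932. RRM2B, a ribonucleotide reductase subunit and a known p53 target, fell in all 4 comparisons, with log2 changes of -1.10, -1.69, -0.86 and -0.83. MDM4, an inhibitor of p53, was at least 4.26-fold lower in OCI-Ly7 at 24 h with treated arrays in the background.

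Of 6 checkpoint phosphatases, 2 fell and 1 rose in U2932 at 8 h, 3 fell and 1 rose at 24 h, 2 fell and 2 rose in OCI-Ly7 at 8 h, and 1 fell and 2 rose at 24 h, with medians of -0.02, -0.26, -0.22 and 0.29. PPP4C, the catalytic subunit of a phosphatase that acts on phosphorylated H2AX, rose in all 4 comparisons, by 0.52, 1.00, 0.42 and 1.17. PPP6C, of a related phosphatase, changed by -0.89, -1.83 and -0.64, passing the test, in U2932 at 8 h, U2932 at 24 h and OCI-Ly7 at 8 h. PPM1D, which encodes a phosphatase induced by p53, rose by 0.91 in OCI-Ly7 at 24 h (adjusted p = 0.000377), beside 0.11 and -0.39 in U2932 and -0.18 in OCI-Ly7 at 8 h. Only 4 of 7 listed end joining genes were tested. In U2932 3 rose and 1 fell at 8 h and 3 rose and 0 fell at 24 h, and in OCI-Ly7 1 rose and 1 fell at either time, with medians of 0.40, 0.67, 0.19 and 0.18. LIG4, the ligase of end joining, rose by 0.96 and 1.48 in U2932, partly on background values (adjusted p 3.79e-07 and 5.88e-10). POLM, a polymerase of end joining, fell by 1.07 in OCI-Ly7 at 24 h (adjusted p = 0.000175), beside -0.45 and 0.07 in U2932 and -0.35 in OCI-Ly7 at 8 h.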

How the data were processed

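RNA of 2 lymphoma lines was read on 24 Illumina bead arrays, 3 in each of 8 groups taken from the labels. Per the labels' protocols, RNA was extracted with an RNeasy kit and turned into labelled cRNA by a TotalPrep amplification kit. The authors deposited probe intensity values on a linear scale for 47231 probes, without detection p-values, and a table of log2 values that were found to be quantile normalised, differing by at most 4.99e-09 from quantile-normalised log2 intensities. How the intensities were exported is not given in the sources used here.

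The analysis began from the intensities. With no negative control probes to use here, 658 probes of gene families silent in B cells took their place, and the share of them that matched or exceeded a probe on an array served as its detection p. Background was removed with limma's normexp (nec, offset 16), followed by log2 and quantile normalisation of the 24 arrays. Kept were probes that reached a detection p below 0.01 on 3 or more arrays (17570 probes, 10171 named genes), and a gene's main probe was the kept probe with the highest mean (2635 genes had more than 1). On an array the depth is signal over background, and precision is limited by the number of arrays. If no array of a group held a probe above background, the fold is a lower bound against the lowest detected signal on those arrays.

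R 4.3.3 and limma 3.58.1 fitted 8 group means over all 24 arrays with 1 array weight per group (0.385 to 3.24), because the OCI-Ly7 24 h arrays were noisier. For each of 11 comparisons, two-sided p-values were adjusted by Benjamini-Hochberg across every gene tested. The fit was also run on simulated arrays with independent noise and few changed genes. Many genes changed in the real data, so that run does not cover their setting. Figures used Python 3.11.15 and matplotlib 3.10.9.

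The 10 genes and the lists were chosen with earlier results of these data known. Named genes are the 10 members, the nearest pattern to each by root mean square difference, the tested chromosomal neighbours, and genes from among, for each list, up to 2 called genes at either end of each trabectedin effect. Probes with several gene symbols (8) or none (17110) were not used. Alternatives were median scaling, no background correction, the deposited log2 values, other detection filters, offset 50, equal weights, spread from the compared arrays, a replicate block, the mean of a gene's probes, and leaving out each array. Normalisation within each line and leaving out both dim OCI-Ly7 24 h arrays were added after seeing the data.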

Additional observations from a re-analysis of the deposited data

Results flagged for a closer look

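A difference between the lines in the trabectedin effect, tested as an interaction contrast in limma with Benjamini-Hochberg adjustment, drew attention to 10 values, each OCI-Ly7 minus U2932 on the log2 scale. At 8 h they were 0.58 for ATM (adjusted p = 0.0236), 0.54 for CHEK2 (0.0298), 1.33 for TP53BP1 (8.28e-06) and 0.69 for MDC1 (0.000137). At 24 h they were 2.57 for ATM (adjusted p = 3.68e-08), 1.23 for PRKDC (0.0218), 1.62 for CHEK2 (1.65e-05), 2.93 for TP53BP1 (2.73e-09), 0.61 for MDC1 (0.0038) and -1.42 for H2AX (0.00103).

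A difference between 24 and 8 h of the effect drew attention to 8 more. In U2932 they were -1.43 for ATM (adjusted p = 1.15e-07), 0.43 for ATRIP (0.0115), -1.69 for PRKDC (1.29e-05), -1.47 for CHEK2 (5.22e-08), -0.23 for WEE1 (0.0461) and -1.12 for TP53BP1 (1.90e-06). In OCI-Ly7 they were 0.84 for ATRIP (adjusted p = 0.012) and -1.98 for H2AX (0.00029). For CHEK2 and TP53BP1, each value that includes U2932 at 24 h uses treated arrays in the background, all 3 for CHEK2 and 2 of 3 for TP53BP1, so its size is not fully measured. Every value that includes OCI-Ly7 at 24 h rests on treated arrays that lay alone on 1 chip.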

How the results depend on the processing

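Over the alternatives, 1237 of the log2 changes of single genes kept their direction and their side of the threshold, 73 dropped below it, 23 passed it and 11 changed sign. With median scaling ATRIP changed sign in U2932 at 24 h (-1.15, adjusted p = 2.73e-11), OCI-Ly7 at 24 h (-0.22), the shift between times in U2932 (-0.20) and the lines in DMSO (-0.50), and MDC1 changed sign for the lines in DMSO (-0.22). With normalisation within each line the last values were -0.22 for ATRIP and -0.12 for MDC1. In OCI-Ly7 at 24 h, TP53BP1 became 0.084 without both dim arrays and between -0.18 (without trabectedin replicate 1) and 0.0089 (without DMSO replicate 3) with 1 array left out. H2AX became 0.25 without both dim arrays and between -0.60 (without DMSO replicate 1) and 0.27 (without DMSO replicate 3).

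Members called in OCI-Ly7 at 24 h, 3, went to 7 with median scaling and 6 with equal weights, and to between 1 and 4 with 1 array left out (1 without DMSO replicate 2 or trabectedin replicate 1 or 2). For the difference between lines at 8 h, 4 went to 8 with median scaling and 2 with equal weights, and to between 2 and 4 with 1 array left out (2 without OCI-Ly7 DMSO replicate 1 or trabectedin replicate 1). The shift between times in OCI-Ly7, 2, went to between 1 and 3 with 1 array left out (1 without DMSO replicate 2 at 24 h). DMSO over time in U2932, 3 by limma with group weights, went to 0 with equal weights. DMSO over time in OCI-Ly7, 1, went to 0 with the spread of the compared arrays and without 24 h DMSO replicate 2.

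Of 36 pairs of same-numbered arrays of a line, 7 had deviations from their group means that correlated above 0.1. In OCI-Ly7 replicate 1 these were 5 of 6 pairs (0.055 to 0.231), and replicate 2 of either line held 1 of 6. The main fit did not take the numbers as pairs, and for OCI-Ly7 replicate 1 the count does not settle this. With the replicate block, 7, 9, 6 and 3 members passed in the 4 trabectedin effects. PRKDC in U2932 at 8 h then had an adjusted p of 0.0527, ATRIP in OCI-Ly7 at 8 h 0.0497, the WEE1 shift in U2932 0.0604 and ATRIP between lines in DMSO 0.0868 (0.26). The cause of these changes was not tested. A slide block could not be fitted for OCI-Ly7 at 24 h.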

Other observations

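Before normalisation, the raw H2AX intensities in U2932 at 24 h were 1998, 1944 and 1833 with DMSO and 2077, 2302 and 2478 with trabectedin, on treated arrays whose mean intensity was lower (364.8 against 542.7). In OCI-Ly7 at 24 h they were 454.1, 664.4 and 577.5 with DMSO and 280.4, 284.5 and 178.6 with trabectedin. The raw intensities of the main ATM probe in U2932 at 24 h were 1872, 1855 and 1901 with DMSO and 139.3, 155.2 and 167 with trabectedin, which are values as deposited.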
